A study of Mus musculus with 6 samples.

Results

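The MiT/TFE family of transcription factors and the folliculin complex that controls it were followed in polyadenylated RNA of mouse embryonic stem (ES) cells. The 9 genes are the 4 family members Tfec, Tfeb, Tfe3 and Mitf, the folliculin gene Flcn with its partners Fnip1 and Fnip2, and the Rag GTPase genes Rragc and Rragd. They were found by symbol among 55401 gene identifiers, and all 9 were among the 17778 genes tested. Tfec was chosen by its fold change between these same 2 groups, one of the largest rises, so its values are a description without a test. The other 8 were added for their known place in the same pathway. All 9 were chosen with earlier results of these data known.

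The study grew ES cells for 7 days without doxycycline (3 libraries labelled as expressing 3XHA-Taf13, a tagged form of a TFIID subunit) or with it (3 libraries labelled KO), and each library came from its own Petri dish. The genotype behind the 2 labels, the strain, the promoter that drives the tagged Taf13 and the number of clones were not in the labels used here. The drug and the KO label always go together, so the effect of one cannot be told apart from that of the other.

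MiT/TFE factors are basic helix-loop-helix leucine zipper proteins that bind E-box sequences as homodimers or as heterodimers with each other, and switch on genes of lysosomes, autophagy and nutrient sensing. When amino acids are plentiful, folliculin bound to FNIP1 or FNIP2 acts on RagC or RagD at the lysosome, so that TFEB, TFE3 and MITF are brought to the kinase mTORC1, phosphorylated and held in the cytoplasm. In mouse ES cells this arm is known for the exit from the naive state, in which the folliculin complex keeps TFE3 out of the nucleus and TFE3 otherwise sustains Esrrb. Tfec is best known from macrophages, and Mitf from melanocytes and osteoclasts.

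As most members differed between the groups, the stretches before their transcription starts were read for the E-box CACGTG, a palindrome and so identical on both strands, and for CATGTG, which reads CACATG on the other strand and cannot overlap CACGTG. RefSeq windows on GRCm38.p6, from 250 bases before to 50 after a start, were at hand for all 9 genes, 14 windows in all. CACGTG was present in 2 of the 14, those of Fnip1 and Rragc, against 7.15% of all 32851 windows. CATGTG was in none of the 14, and in 14.2% of all windows. The 4 stretches below are those of the members with the largest differences, Tfec and Tfeb, and the 2 that hold the E-box, in capitals, with 30 bases on each side. They lie outside annotated exons and are written 5′ to 3′ on the gene's strand.
Tfec, chr6:16898442-16898691, minus strand: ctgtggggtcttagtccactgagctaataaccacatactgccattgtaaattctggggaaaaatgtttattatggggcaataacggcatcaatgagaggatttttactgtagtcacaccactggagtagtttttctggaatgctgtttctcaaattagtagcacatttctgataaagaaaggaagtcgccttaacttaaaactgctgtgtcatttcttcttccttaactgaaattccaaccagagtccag
Tfeb, chr17:47736787-47737026, plus strand: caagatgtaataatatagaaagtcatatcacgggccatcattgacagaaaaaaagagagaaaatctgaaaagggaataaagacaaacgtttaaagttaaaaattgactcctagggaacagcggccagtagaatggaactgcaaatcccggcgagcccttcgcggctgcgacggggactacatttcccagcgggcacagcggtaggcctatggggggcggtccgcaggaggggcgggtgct
Fnip1, chr11:54438074-54438139, plus strand: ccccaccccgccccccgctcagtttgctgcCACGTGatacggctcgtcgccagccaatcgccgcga
Rragc, chr4:123917291-123917356, plus strand: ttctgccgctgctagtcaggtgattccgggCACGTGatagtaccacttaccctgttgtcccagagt

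Tfeb has 3 such windows, Mitf 3 and Tfe3 2, and the first in the genome is shown for Tfeb. The counts are per gene and do not tell which start was used.

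Total counts ran from 31219328 to 50328010 per library. The ES cell factor genes Pou5f1 and Sox2 were present in all 6 libraries, at 489.7 to 962 and 183 to 333 CPM (reads relative to the scaled library size). Both stood lower in the libraries labelled KO, with no overlap between groups. Pou5f1 went from 828 ± 124 to 498 ± 10.0 CPM and Sox2 from 279 ± 65.6 to 189 ± 5.89 CPM (SD, n = 3). Taf13 itself did not stand lower under the KO label: 244, 445 and 447 reads were counted in the expressing libraries, against 422, 634 and 699. These counts do not tell the tagged from the chromosomal gene, so the labels were not checked by it and each direction below rests on them. Expressing replicate 1 stood apart from the other 2 expressing libraries, and its deviation from their mean followed GC content (r = 0.553 over genes, which are no independent replicates). Calls and counts below that changed without it are given with and without it.

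In the libraries labelled KO 19.2% of all tested genes were called higher and 20.8% lower, 40.0% in all (edgeR's quasi-likelihood test, Benjamini-Hochberg adjusted p under 0.05). With libraries scaled by their totals alone these 3422 higher and 3695 lower genes became 4466 and 2570. With the GC trend across genes removed they were 4457 and 4929, with no filter on low counts 3830 and 3917. Requiring 1 CPM in 3 libraries gave 3060 and 3334. Without expressing replicate 1, 2 or 3 they were 4851 and 4589, 3117 and 3634, and 2840 and 2717. Without KO replicate 1, 2 or 3 they were 2700 and 2779, 2541 and 2647, and 2586 and 2627. List counts below under other settings stand beside these. Among the 9 members Tfec, the gene chosen for its rise, stood higher, which its choice fixed and which is not counted as a call. Of the other 8 members 6 were called lower: Tfeb, Tfe3, Mitf, Fnip1, Fnip2 and Rragd. Flcn and Rragc were not called. The median log2 fold change (KO minus expressing, written log2 change beside values) of the 9 was -0.39, against -0.01 over all tested genes. Leaving out Tfec, whose choice fixed its direction, the 3 values of one group lay entirely above those of the other for 6 of 8 members, and for 53.5% of all tested genes.

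**Figure D1:**
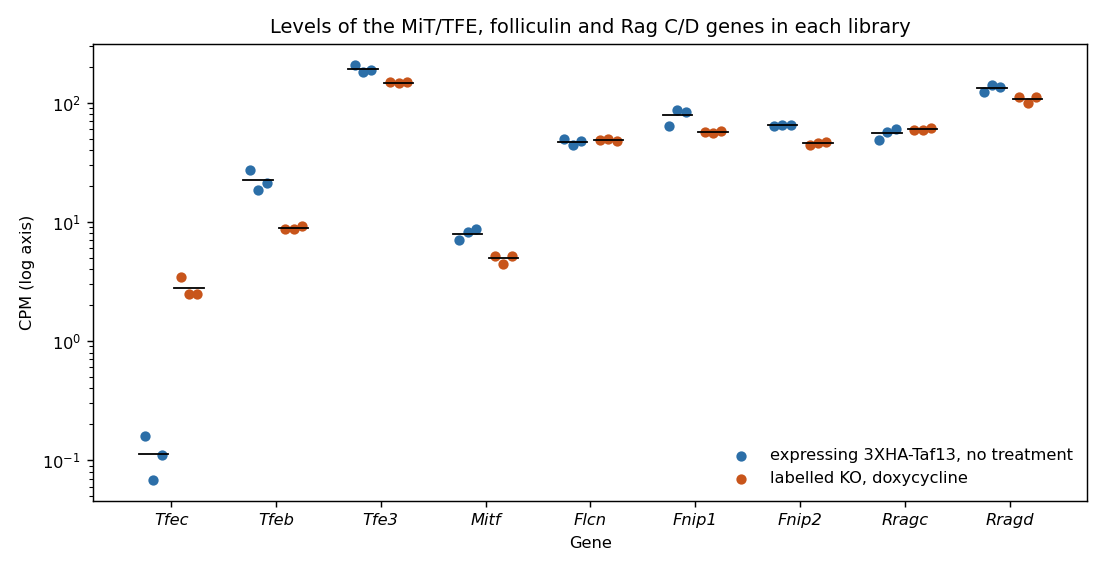
Level of each of the 9 genes in each library, in CPM on a log axis; blue points are the 3 expressing libraries, orange points the 3 labelled KO, and bars the group means. Tfec lies between 0.0680 and 0.160 CPM in the expressing libraries and between 2.46 and 3.44 CPM in those labelled KO, while the points of Flcn and Rragc overlap.

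Tfec (ENSMUSG00000029553; chromosome 6, 16833373 to 16898441, mm10) was barely counted in the expressing libraries, with 5, 3 and 4 reads, and had 120, 112 and 127 reads in those labelled KO. In CPM these were 0.160, 0.0680 and 0.109 against 3.44, 2.48 and 2.46. Every library labelled KO stood above every expressing library, and expressing replicate 2 was at the level that 3 reads give (0.0581 to 0.0961 CPM, depending on the library). Summed over each group, 12 reads stood against 359, a ratio of 25.4 after scaling. Its 95% exact interval of 14.4 to 49.7 covers counting error only, not the choice of Tfec for this rise. The fitted log2 fold change was 4.65 (SE 0.311), and it ran from 4.35 to 4.97 when single libraries were left out. It was the second largest of 17778, after AC134555.1 (5.28) and before 1010001N08Rik (4.45). Tfec entered the tested set through the libraries labelled KO alone, and even there its level per kilobase of exon, 0.500 ± 0.0998 CPM per kb (SD, n = 3), was the lowest of the 9.

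The 5 genes whose log2 CPM over the 6 libraries, centred on its mean, came nearest to that of Tfec were AC134555.1 (Euclidean distance 0.796), Actc1, the cardiac actin gene (0.805), Nostrin, which encodes a regulator of endothelial nitric oxide synthase traffic (0.984), 1010001N08Rik (1.15) and Cubn, the endocytic receptor cubilin (1.16). With 2 groups of 3 libraries, this likeness is mostly that of the group difference. 1010001N08Rik shares exon sequence with Gata6 on the opposite strand. Neither of the nearest protein-coding genes on the chromosome was called. Tes, 166707 bases away, had 36.0 ± 1.24 and 39.8 ± 2.5 CPM (SD, n = 3; log2 change 0.14, SE 0.0721, adjusted p = 0.141, edgeR). Mdfic, 1031203 bases away on the other side, had 7.79 ± 2.56 and 6.45 ± 0.807 CPM (log2 change -0.29, SE 0.221, adjusted p = 0.332, edgeR).

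Markers of other cell types that could carry Tfec were set beside it. All 12 primitive endoderm markers rose in the libraries labelled KO (median log2 fold change 2.13), against 19.2% of all tested genes. Their summed level was 361 to 428 CPM in the expressing libraries and 971 to 997 CPM in those labelled KO. Gata6, a defining factor of that lineage, rose from 1.61 ± 0.0785 to 10.2 ± 0.902 CPM (SD, n = 3), Pdgfra from 3.09 ± 0.347 to 22.6 ± 1.34 CPM, and Lama1, Dab2 and Cubn by log2 fold changes of 2.15, 1.66 and 3.41. Pdgfra shares exon sequence with Gm42802 and Gm42803, Cubn with Gm13270 and Dab2 with Gm18888, on the opposite strand. Pdgfra also shares it with Mir7025 on the same strand. The part of the 12 markers in the Tfec difference was not tested. In bulk RNA, a change in the number of cells of a type and a change in RNA per cell cannot be told apart.

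Of 14 macrophage markers 7 were tested, 3 rose and 0 fell in edgeR (by DESeq2, or at p under 0.05 with no adjustment, 0 fell too). Calls over all tested genes were 19.2% higher and 20.8% lower. Several markers of the lineage, picked after their values were seen, were nearly absent. C1qa had no read in any library. Csf1r stood at 0.0865 and 0.0788 CPM, and Spi1, the gene of the myeloid factor PU.1, at 0.0941 and 0.112 CPM (means of the expressing libraries and of those labelled KO). Mrc1 was present in both groups, at 7.77 ± 0.922 and 7.47 ± 0.802 CPM (SD, n = 3), and was not called. Ptprc, Aif1 and Cd14, at 0.250 to 0.545 CPM as group means, were not called either. Without expressing replicate 1, Aif1 was called higher (log2 fold change 1.31, adjusted p = 0.0136, edgeR). Cd68, a lysosomal membrane glycoprotein gene also used outside macrophages, rose from 8.58 ± 0.614 to 12.8 ± 1.24 CPM (SD, n = 3). Lyz2 and Itgam rose too, from 0.191 to 0.726 and from 0.311 to 0.841 CPM. The Lyz2 groups overlapped, with 0.258 CPM in KO replicate 1 and 0.272 CPM in expressing replicate 2. Itgam shares exons with Gm49368 on the same strand, which makes its value uncertain. The summed level of the list was 17.3 to 19.0 CPM in the expressing libraries and 21.4 to 25.6 CPM in those labelled KO. The 3 rises became 4 without expressing replicate 1, 1 without KO replicate 2 or KO replicate 3, 1 under the filter of 1 CPM, and 2 without any other library.

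Tfeb (ENSMUSG00000023990; chromosome 17, 47737030 to 47792419), the factor best known for driving lysosome formation, went the other way. It stood at 27.4, 18.7 and 21.3 CPM in the expressing libraries and at 8.71, 8.74 and 9.23 CPM in those labelled KO. The groups were well apart, and the 3 libraries labelled KO nearly coincided. Tfeb fell 2.52-fold, from 22.5 ± 4.49 to 8.89 ± 0.288 CPM (SD, n = 3; log2 change -1.33, SE 0.135, adjusted p = 7.99e-05, edgeR). It was the only member beside Tfec to move by more than 2-fold, as 5.22% of all tested genes were called so upward and 3.64% downward. The highest of its values is that of expressing replicate 1, and 63.2% of the bases of its longest transcript are G or C. The log2 fold change was -1.13 without that library and -1.21 with the GC trend across genes removed.

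Tfe3 (ENSMUSG00000000134; chromosome X, 7762560 to 7775202), the member tied to the exit from the naive state, was the most abundant of the family. It stood at 209, 181 and 189.5 CPM in the expressing libraries and at 149, 145 and 149 CPM in those labelled KO, and the groups did not overlap. The decrease was modest, with a log2 fold change of -0.39 (SE 0.0644, adjusted p = 0.00130, edgeR), so that the level fell by 23.6%. Mitf (ENSMUSG00000035158; chromosome 6, 97807052 to 98021349), the melanocyte and osteoclast factor, was low, with 221, 361 and 318 reads in the expressing libraries and 180, 201 and 268 reads in those labelled KO. In CPM these were 7.08, 8.19 and 8.70 against 5.16, 4.46 and 5.19. All 3 libraries labelled KO lay under all 3 expressing libraries, and Mitf fell by 38.3% (log2 fold change -0.70, SE 0.119, adjusted p = 0.00149, edgeR).

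Markers of the cells in which Mitf is known were set beside it. Of 9 melanocyte markers 5 were tested, with 3 lower and 1 higher, while Tyr, Tyrp1 and Dct, the pigment enzymes, stood between 0.0268 and 0.134 CPM as group means. Pmel, which encodes the fibril protein of pigment granules, fell from 3.59 ± 0.357 to 1.07 ± 0.167 CPM (SD, n = 3; log2 change -1.76, SE 0.165), and Trpm1, an ion channel gene, from 1.82 ± 0.449 to 0.352 ± 0.132 CPM (log2 change -2.37, SE 0.305). Pmel shares exon sequence with Dgka and Cdk2, and Trpm1 with Gm44722, on the opposite strand. The 1 higher marker was Mlana, named after its value was seen. It rose from 0.836 ± 0.0704 to 1.61 ± 0.104 CPM (log2 change 0.94, SE 0.178), with no overlap between groups. Of 8 osteoclast markers 6 were tested, 2 were higher and 1 lower, with Nfatc1, a calcineurin-dependent transcription factor gene, at 0.98 (SE 0.159) and Calcr, the calcitonin receptor gene, at -1.13 (SE 0.142). Under the filter of 1 CPM 3 of them were tested and 1 was higher. The counts of both lists stand beside 19.2% higher and 20.8% lower over all tested genes.

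**Figure D2:**
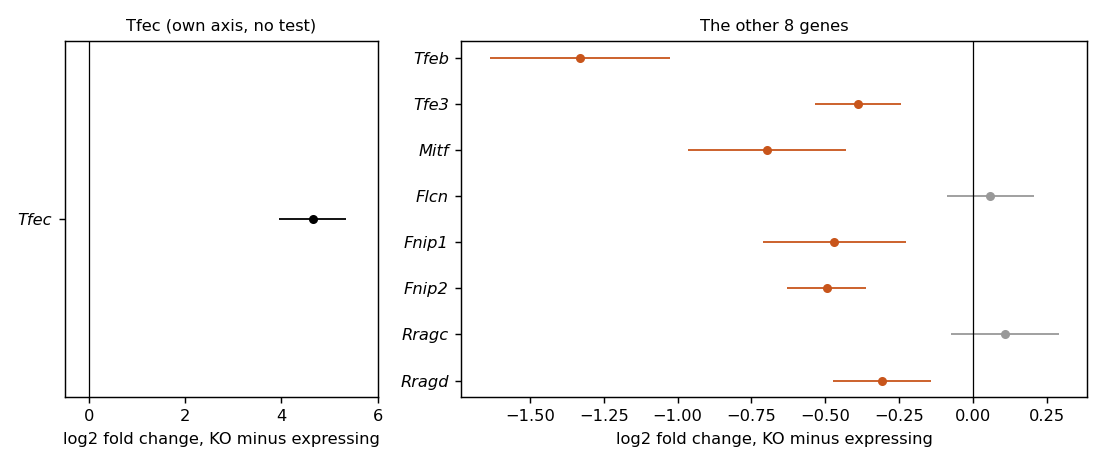
Log2 fold change of each member, libraries labelled KO minus expressing libraries, with bars for the 95% interval of the fit; orange points passed an adjusted p of 0.05, grey points did not, and Tfec in black has its own axis and no test. Tfeb lies farthest to the left at -1.33, and the intervals of Flcn and Rragc cross zero.

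Calls within the folliculin complex were split. Flcn (ENSMUSG00000032633; chromosome 11, 59791408 to 59810016), whose product activates GTP hydrolysis by RagC and RagD, stood at 49.3, 44.3 and 47.5 CPM in the expressing libraries and at 48.5, 50.1 and 48.2 CPM in those labelled KO. The groups overlapped, the log2 fold change was 0.06 (SE 0.0660, adjusted p = 0.511, edgeR), and the 95% interval ran from -0.09 to 0.21. The overlap rests on expressing replicate 1, as the other expressing libraries lay under every library labelled KO. Without that replicate the log2 fold change of Flcn was 0.12 (SE 0.0531, adjusted p = 0.0562, edgeR). With the GC trend removed it was 0.11 (SE 0.0481, adjusted p = 0.0715, edgeR). Fnip1 (ENSMUSG00000035992; chromosome 11, 54438199 to 54518235), a partner that links folliculin to the energy sensor AMPK, stood at 64.0, 87.9 and 84.1 CPM against 57.0, 55.4 and 58.1 CPM. Expressing replicate 1 was the lowest of its group and still above the libraries labelled KO. Fnip1 fell by 27.8% (log2 fold change -0.47, SE 0.108, adjusted p = 0.00730, edgeR), and by 0.57 on the log2 scale without expressing replicate 1.

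Fnip2 (ENSMUSG00000061175; chromosome 3, 79455974 to 79567796), the paralogue of Fnip1, had one of the tightest profiles of the 9, with 64.2, 64.8 and 65.3 CPM in the expressing libraries and 44.4, 46.4 and 46.9 CPM in those labelled KO. It fell by 29.1% (log2 fold change -0.50, SE 0.0592, adjusted p = 1.99e-04, edgeR). The ratio of the partners within a library overlapped between the groups. The log2 ratio of Fnip1 to Fnip2 counts was 0.27 ± 0.238 in the expressing libraries and 0.31 ± 0.0536 in those labelled KO (SD, n = 3; difference 0.04, exact two-sided permutation p = 1, adjusted over 5 ratios p = 1). Without expressing replicate 1 the sign of that difference turned, to -0.10. Summed per kilobase of exon, the 2 FNIP genes went from 18.8 ± 1.86 to 13.5 ± 0.257 CPM per kb (SD, n = 3).

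Rragc and Rragd encode the Rag GTPases on which folliculin acts, and each pairs with RagA or RagB. Rragc (ENSMUSG00000028646; chromosome 4, 123917446 to 123936997) stood at 49.0, 56.8 and 60.4 CPM in the expressing libraries and at 59.2, 58.6 and 61.4 CPM in those labelled KO, and the groups overlapped. Its log2 fold change was 0.11 (SE 0.0815, adjusted p = 0.321, edgeR), with a 95% interval from -0.08 to 0.29. Of its exon sequence 264 bases overlap 4930535I16Rik on the opposite strand, so its value is uncertain to that extent. None of the other 8 members shares exon sequence with an annotated gene. Rragd (ENSMUSG00000028278; chromosome 4, 32983037 to 33022180), a known MiT/TFE target that raises mTORC1 recruitment when induced, stood at 123, 142 and 136 CPM against 113, 99.8 and 112 CPM. It fell by 19.2% (log2 fold change -0.31, SE 0.0741, adjusted p = 0.00924, edgeR), with no overlap between groups. The Rragd call was lost without KO replicate 2, the lowest of the 6 (log2 fold change -0.25, adjusted p = 0.0524, edgeR).

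Ratios within a library do not depend on the scaling between libraries. The log2 ratio of Rragc to Rragd counts in the expressing libraries was -1.33, -1.32 and -1.17, against -0.93, -0.77 and -0.86 in those labelled KO, a difference of 0.42 toward Rragc. The ratio of Rraga to Rragb, the partner pair, moved by 0.65, from 1.01 ± 0.116 to 1.65 ± 0.115 (SD, n = 3). The ratio of Tfe3 to Tfeb moved by 0.93, from 2.93, 3.28 and 3.16 to 4.09, 4.06 and 4.01. In each of these 3 ratios the groups did not overlap, and each gave an exact two-sided permutation p of 0.1, the smallest that 3 against 3 allows, or 0.167 adjusted over the 5 ratios. Tfe3 to Mitf moved by 0.31, with overlapping groups (exact permutation p = 0.3, adjusted p = 0.375). That overlap rests on expressing replicate 1, at 4.88. Expressing replicates 2 and 3 stood at 4.47 and 4.44, and the libraries labelled KO at 4.85, 5.03 and 4.84.

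Levels of different genes were compared per kilobase of exon. In the expressing libraries the order was Rragd (25.8 ± 1.81 CPM per kb, SD, n = 3), Tfe3 (20.9 ± 1.53), Rragc (16.6 ± 1.74), Fnip1 (11.1 ± 1.80), Flcn (10.9 ± 0.582), Fnip2 (7.74 ± 0.0641), Tfeb (3.96 ± 0.792), Mitf (1.29 ± 0.134) and Tfec (0.0201 ± 0.00825). Fnip1 and Flcn did not differ beyond their spread there. In the libraries labelled KO Rragc (17.9 ± 0.441 CPM per kb, SD, n = 3) stood above Tfe3 (15.9 ± 0.198), and Flcn (11.3 ± 0.236) above Fnip1 (7.98 ± 0.189). Rragd was first there too at 20.9 ± 1.39, and Mitf (0.797 ± 0.0670) stood closer to Tfec (0.500 ± 0.0998). The top of this order rests on the length used. Per kilobase of the longest transcript Tfe3 was first in both groups, at 30.5 ± 2.23 and 23.3 ± 0.290 CPM per kb (SD, n = 3), before Rragd at 26.5 ± 1.86 and 21.4 ± 1.43 and Rragc at 18.8 ± 1.97 and 20.2 ± 0.499.

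Within the family, Tfe3 made up 79.0%, 80.9% and 79.8% of the summed per-length level in the expressing libraries and 84.3%, 85.3% and 84.7% in those labelled KO. The Tfeb share was 16.9%, 13.6% and 14.6% against 8.07%, 8.37% and 8.59%. Tfec went from 0.0756 ± 0.0250% to 2.65 ± 0.500% (SD, n = 3), while Mitf stood at 4.98 ± 0.847% and 4.24 ± 0.285%. These shares hold Tfec and are a description without a test. In CPM per kb, which is relative to the scaled library size, the Tfec level did not make up for the decrease of the others. The family sum went from 26.1 ± 2.22 to 18.8 ± 0.340 CPM per kb (SD, n = 3), and without Tfec from 26.1 ± 2.21 to 18.3 ± 0.291. With the longest transcript in place of all exons as the length, the Tfeb share was 22.8% and 13.1% and the Tfe3 share 73.2% and 80.5% (expressing libraries and those labelled KO).

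**Figure D3:**
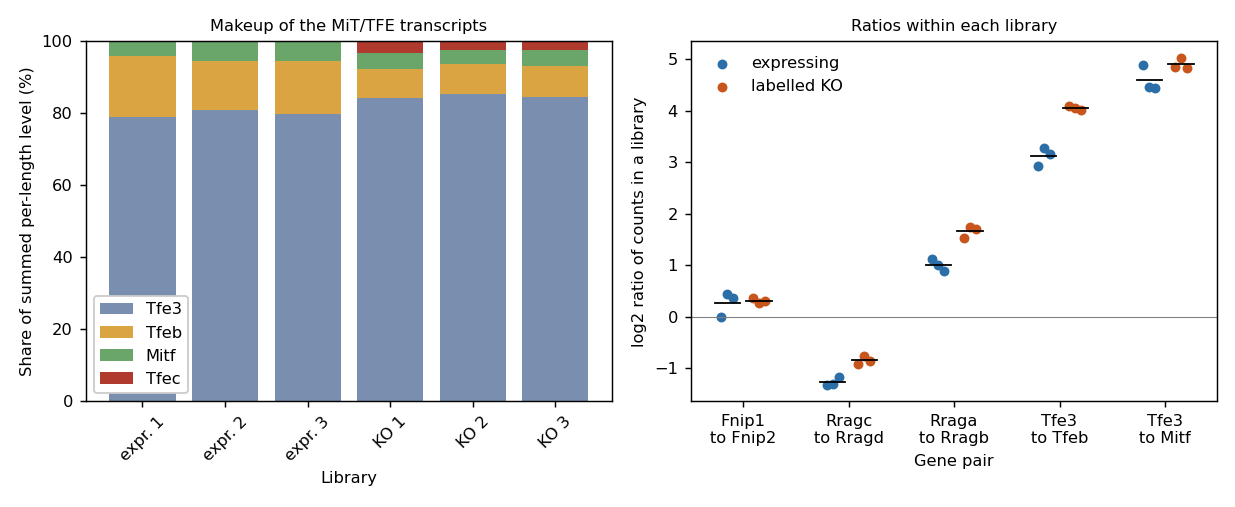
Left, share of each MiT/TFE gene in the summed per-length level of the family, one bar per library, in percent. Right, log2 ratio of the counts of 2 genes within each library, with bars at the group means; the points of Tfe3 to Tfeb lie between 2.93 and 3.28 in the expressing libraries and between 4.01 and 4.09 in those labelled KO, and those of Fnip1 to Fnip2 overlap.

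The machinery around the Rag GTPases was read from lists of the same pathway. Of 9 genes for RagA, RagB, the Ragulator scaffold and its partners, 1 rose and 3 fell, against 19.2% and 20.8% of all tested genes. Slc38a9, which encodes the lysosomal arginine sensor that activates the Rags, rose from 39.1 ± 2.95 to 57.9 ± 1.93 CPM (SD, n = 3; log2 change 0.56, SE 0.0732, adjusted p = 3.25e-04, edgeR), and it shares exon sequence with Gm47827 on the opposite strand. Rragb fell from 66.5 ± 7.87 to 45.4 ± 2.69 CPM (log2 change -0.55, SE 0.0927, adjusted p = 0.00140, edgeR). Lamtor1 and Lamtor4, Ragulator subunits named after their values were seen, fell as well (-0.38, SE 0.0924, and -0.45, SE 0.10), and Rraga was not called (0.10, SE 0.0616). The median log2 fold change was -0.09, but 0.04 without expressing replicate 1 and 0.00 with library totals, where 2 genes rose and 3 fell. Without KO replicate 3 1 rose and 2 fell.

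Of 11 tested genes for GATOR1, GATOR2 and KICSTOR, the complexes that set RagA and RagB, 5 fell and 0 rose in edgeR (by DESeq2, or at p under 0.05 with no adjustment, 0 rose too), with a median of -0.19. Over all tested genes 20.8% fell and 19.2% rose. Mios, a GATOR2 subunit, fell from 50.4 ± 4.41 to 30.2 ± 0.246 CPM (SD, n = 3; log2 change -0.74, SE 0.0777), Wdr59 of the same complex by 0.49 on the log2 scale, and Itfg2 of KICSTOR by 0.44. Itfg2 shares exon sequence with Nrip2, and Wdr59 with Mir1957b, on the opposite strand. The 5 decreases became 3 without expressing replicate 3 or any of the libraries labelled KO, and without expressing replicate 1 the counts were 2 higher and 5 lower, with a median of -0.07. With the GC trend removed 1 rose and 5 fell.

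Of 9 genes for mTORC1, RHEB and the TSC complex 4 fell and 0 rose in edgeR (by DESeq2, or at p under 0.05 with no adjustment, 0 rose too), with a median of -0.19. Of all tested genes 20.8% fell and 19.2% rose. Deptor, an mTOR inhibitor gene, fell from 87.1 ± 8.59 to 54.0 ± 1.14 CPM (SD, n = 3; log2 change -0.69, SE 0.0784), and Mlst8, a subunit gene, by 0.52 on the log2 scale (SE 0.0962). Both share exon sequence with a gene on the opposite strand, Gm9920 and Bricd5. Mtor itself, named after its value was seen, was not called (-0.16, SE 0.0726). It was called lower with the GC trend removed (-0.108, adjusted p = 0.0320, edgeR) and without expressing replicate 2 (-0.222, adjusted p = 0.0324, edgeR). With library totals 1 gene rose and 2 fell, with the GC trend removed 1 rose and 7 fell, without KO replicate 3 0 rose and 2 fell, and without expressing replicate 1 1 rose and 4 fell, with a median of -0.10.

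**Figure D4:**
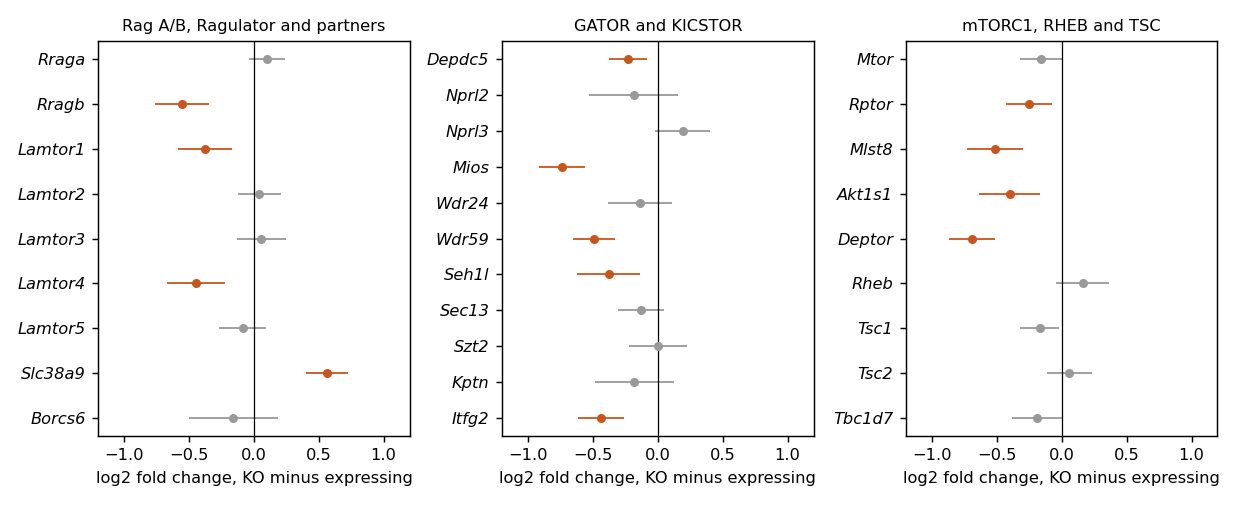
Log2 fold change, libraries labelled KO minus expressing libraries, of the tested genes of 3 pathway lists, with 95% intervals; orange points passed an adjusted p of 0.05 and grey points did not. Slc38a9 at 0.56 is the one orange point to the right of zero, and Mios at -0.74 lies farthest to the left.

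Enzymes and binding proteins that act on the factors or on FNIP1 were read as a further list. Of 19 genes for AMPK, calcineurin, the 14-3-3 proteins and the calcium channel MCOLN1, 6 rose and 0 fell in edgeR (by DESeq2 0 fell, and at p under 0.05 with no adjustment 1 was lower), with a median of 0.07. The shares over all tested genes were 19.2% higher and 20.8% lower. Ppp3cc, a calcineurin catalytic subunit gene, rose from 5.01 ± 0.182 to 9.57 ± 0.488 CPM (SD, n = 3; log2 change 0.93, SE 0.0969), and it shares exon sequence with Gm49417 on the opposite strand. The AMPK subunit genes Prkaa2 (0.51, SE 0.111), Prkab2 (0.45, SE 0.0804) and Prkag3 (1.14, SE 0.251) rose too, Prkag3 from only 0.504 to 1.11 CPM. Prkab2 shares exon sequence with Gm17651 on the opposite strand. Ppp3ca and the 14-3-3 gene Ywhah, named after their values were seen, were the other 2. Leaving out expressing replicate 1 gave 8 higher and 3 lower, the GC correction 7 and 2, and no filter on low counts 6 and 1.

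Genes known as direct MiT/TFE targets in lysosomes, autophagy and metabolism went both ways. Of 36 tested, 5 rose and 7 fell, with a median log2 fold change of -0.00 against -0.01 over all tested genes, so that both shares were close to those of all tested genes given above. Cd63, a membrane protein gene of late endosomes, rose from 29.8 ± 1.15 to 42.6 ± 0.0814 CPM (SD, n = 3; log2 change 0.51, SE 0.0648). Glb1, lysosomal beta-galactosidase, fell from 41.5 ± 3.9 to 27.9 ± 1.25 CPM (log2 change -0.57, SE 0.0835) and shares exons with Tmppe on the same strand, and Atp6v1b2, a subunit gene of the proton pump that acidifies lysosomes, fell from 211 ± 4.48 to 167 ± 3.17 CPM (log2 change -0.34, SE 0.0525). Gpnmb, often used as a readout of these factors and named after its value was seen, was low and not called, at 2.49 ± 0.839 and 1.67 ± 0.217 CPM (adjusted p = 0.0873, edgeR). Its groups did not overlap, and Gpnmb was called lower with no filter on low counts (log2 fold change -0.54, adjusted p = 0.0251, edgeR). With the GC trend removed it was called lower too (-0.54, adjusted p = 0.0466, edgeR). The counts were the least settled of the lists: 11 higher and 4 lower with library totals, 13 and 11 with the GC trend removed, 13 and 9 without expressing replicate 1, 3 and 4 without KO replicate 1, 2 and 4 without KO replicate 2, 3 and 5 without KO replicate 3, and 4 and 4 without expressing replicate 3.

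All 6 naive-state factor genes set beside Tfe3 fell, against 20.8% of all tested genes. One of them, Tbx3, named after its value was seen, had the smallest decrease (log2 fold change -0.30, adjusted p = 0.0180, edgeR), and its call was lost with library totals and when KO replicate 1, KO replicate 3 or expressing replicate 3 was left out (adjusted p from 0.0567 to 0.10, edgeR). Nanog, a core naive-state factor gene, fell from 281 ± 21.8 to 119 ± 6.75 CPM (SD, n = 3; log2 change -1.24, SE 0.0735). Esrrb, the gene that TFE3 is known to sustain, named after its value was seen, went from 225 ± 14.7 to 114 ± 3.23 CPM (SD, n = 3; log2 change -0.98, SE 0.0641, adjusted p = 7.27e-06, edgeR), a larger decrease than that of Tfe3 itself in these fits, though that difference was not tested. Klf2 and Klf4, naive-state Krüppel-like factor genes, fell from 69.2 ± 9.94 to 21.5 ± 1.46 CPM and from 64.6 ± 2.80 to 28.2 ± 3.57 CPM (SD, n = 3), and Tfcp2l1 from 137 ± 4.69 to 64.1 ± 4.33 CPM. Tfcp2l1 shares exon sequence with Gm23497 on the same strand. Fibroblast markers, which feeder cells would bring, numbered 2 higher and 1 lower of 9, against 19.2% and 20.8% of all tested genes. Dcn, which encodes the matrix proteoglycan decorin, rose from 0.594 ± 0.207 to 2.59 ± 0.347 CPM (SD, n = 3), and Thy1, a surface glycoprotein gene, fell by 0.89 on the log2 scale (SE 0.169). The markers' summed level was 1165 to 1363 CPM in the expressing libraries and 955 to 1361 CPM in those labelled KO, most of it from the fibronectin gene Fn1 (named after its value was seen; 1129 ± 88.8 and 969 ± 185 CPM, SD, n = 3). Without Fn1 it was 105 to 133 CPM and 94.2 to 178 CPM, so the groups overlapped either way. Among the libraries labelled KO, replicate 2 stood apart in Fn1 (1182 against 861 and 863 CPM). It did so too in Col1a1 (76.0 against 40.9 and 40.1 CPM) and Col1a2 (68.0 against 31.6 and 31.8 CPM), named after their values were seen. In KO replicates 1 and 3 these genes stood under every expressing library, so their overlap rests on KO replicate 2. The counts became 2 higher and 4 lower without KO replicate 2, 2 and 3 with no filter on low counts, and 1 and 1 under the filter of 1 CPM.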

How the data were processed

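Poly(A) RNA was sequenced from 6 libraries, 3 in each of 2 groups taken from the sample titles. The authors deposited raw counts per Ensembl gene. The submitters' processing notes name STAR 2.5.3a, HTSeq 0.6.1p1, cutadapt 1.10, bcl2fastq 2.20.0.422 and the build mm10; settings and the strand option of the counting were not in the labels used here. Reads of overlapping genes on opposite strands therefore may not be separated.

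Symbols, positions and exon lengths came from GENCODE M21 on the same build, which named 55141 of 55401 identifiers; 1 listed KICSTOR gene had no match. Lowly counted genes were removed with filterByExpr (at least 10 reads, at least 15 in total), and libraries were scaled by TMM and fitted in R 4.3.3 with edgeR 4.0.16 (glmQLFit, robust, glmQLFTest, group as the only term). Adjusted p-values cover all 17778 tested genes, with a threshold of 0.05. A count of 3 reads corresponds to 0.0581 to 0.0961 CPM. Dishes may share a starting culture, so p-values measure the spread between these dishes. The fitting code was tested on simulated data.

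The members, the 11 gene lists and the tests were chosen with earlier results of these data known. Besides the members, the rule names from each list the 3 called genes of smallest p (2 for lists under 12 genes) and called genes past 2-fold with a mean of 1 CPM or more in either group, up to 5 a list. Defining markers at or near zero, and genes so described in the text, were added after their values were seen. The alternatives were DESeq2 1.42.0, other scalings and filters, a GC correction, a replicate block and leaving out each library.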

Additional observations from a re-analysis of the deposited data

How the results depend on the processing

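The direction of each of the 9 members was the same in all 13 alternative fits, which were DESeq2's size factors, library totals, the DESeq2 test, 2 filters, the GC correction, the replicate block and leaving out each of 6 libraries. The direction of Tfec was fixed by its choice, so its sameness across these fits is no test of it. Of the other 8 members 6 were called lower in every fit except without KO replicate 2, where 5 were lower and Rragd missed the threshold. With the replicate block, which uses the dish numbers in the labels, 6 members were called lower. Over all tested genes 3243 were then called higher and 3401 lower. Same-numbered libraries did not deviate together (correlations of 0.02, -0.03 and 0.04 across genes), and expressing replicate 1 correlated best with KO replicate 2, so the numbers were not taken to pair the dishes. Leaving out a library moved the counts over all tested genes between 2541 and 4851 higher and between 2627 and 4589 lower. The difference in the Fnip1 to Fnip2 ratio ran from -0.10 to 0.13 and was negative without expressing replicate 1; the cause was not tested. Shares within the family and the order of Tfe3, Rragd and Rragc depend on the length used. The list counts and their genes were recomputed under the same settings, a choice made after seeing the data, and counts that moved by over 1.5 times are given beside them. Precision is limited by depth for Tfec in the expressing libraries, with at most 5 reads each.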
